A study of Mus musculus with 24 samples.

Results

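Collagens and laminins are the proteins that build most of the fibrillar and sheet-like extracellular matrix, and integrins are the cell surface receptors that grip it. The genes described here are the 42 collagen, 10 laminin and 26 integrin genes, 78 of 18193 genes with a symbol of their own on the array, chosen by the form of their symbols (Col, Lam or Itg with a chain letter or number) and not by their values. The 3 integrin binding proteins whose symbols start the same way were left out. Where a gene had several probe sets, the one with the highest mean over all arrays stood for it, and 159 of 34945 probe sets with exactly 1 symbol belonged to these genes.

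The values come from 24 Affymetrix arrays of total RNA from mouse brain, in a study of selection for contextual fear conditioning in animals from a cross of A/J with C57BL/6J. Each of the 4 groups held 6 arrays: amygdala of high freezing animals, amygdala of low freezing animals, hippocampus of high freezing animals and hippocampus of low freezing animals. Freezing is the motionless posture by which remembered fear of a place is scored. All groups descend from the same cross, and the labels give neither age nor sex, nor whether an array holds the RNA of 1 animal or of a pool, so the p-values reflect only how these arrays scatter.

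Collagen chains wind into helices that form fibrils, the networks of basement membranes or shorter associated molecules. Laminins are trimers of an alpha, a beta and a gamma chain, and they are the main adhesive proteins of basement membranes. Integrins are pairs of an alpha and a beta chain. In brain tissue, basement membranes surround the blood vessels and line the surface under the meninges, while neurons and glia carry integrins and secrete some collagens of their own.

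The labelled regions were checked against marker genes. Over the brightest probe set of each gene, 31.7% were higher and 24.6% lower in the amygdala arrays. Of 10 markers of hippocampal fields, 9 were lower and 1 was higher in the amygdala arrays, with a median log2 difference of -2.52. Of the markers of striatum and central amygdala, all 8 that could be tested were higher in the amygdala arrays (median 2.89). Of 7 markers of the basolateral amygdala, 2 were higher and 4 lower, with a median of -1.21, so that list did not bear out the amygdala label. Array medians lay between 36.7 and 43.4 intensity units, and the number of arrays limits the precision.

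All 10 measured markers of choroid plexus and ependyma, the cells that line the ventricles and make the cerebrospinal fluid, were higher in the amygdala arrays, with a median log2 difference of 2.68. Their summed intensity was 14931 to 21795 in the amygdala arrays of both freezing labels. In the hippocampus it was 2389 to 13641 (median 8829) in high freezing arrays and 1974 to 12086 (median 3636) in low freezing arrays. On average Ttr gave most of this sum, with means of 14676 in the amygdala and 6545 in the hippocampus. Its log2 difference was 1.49, below the median of 2.68, while Clic6 had 3.66 (means 812 and 52.9) and Folr1 3.17 (486 and 45.1). None of these markers was at 0, the dimmest in the hippocampus being Otx2 with a mean of 10.4. All 10 oligodendrocyte markers were also higher in the amygdala arrays (median 2.13), with sums of 38866 to 53308 there against 14851 to 19989 in the hippocampus. In bulk tissue, a larger number of cells of a type and more RNA per cell cannot be told apart.

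Promoter sequence is shown for 3 of the genes whose values separated the regions completely, the pair that encodes type VIII collagen (Col8a1 and Col8a2, higher in the amygdala) and the integrin alpha chain Itga4 (lower in the amygdala). Of the other 6 such genes, Col19a1, Col4a1, Itga8 and Itgav were not shown because the bases before the start lie in an annotated gene, and Col9a3 and Itgb4 because no single RefSeq window was given for them. Each run is the 250 bases before the annotated start, 5′ to 3′ on the gene's strand, from RefSeq (GRCm38.p6), and capitals mark GC boxes, the letters GGGCGG on either strand. The windows are chr16:57754738-57754987 on the minus strand for Col8a1, chr4:126286544-126286793 on the plus strand for Col8a2 and chr2:79255176-79255425 on the plus strand for Itga4.
Col8a1: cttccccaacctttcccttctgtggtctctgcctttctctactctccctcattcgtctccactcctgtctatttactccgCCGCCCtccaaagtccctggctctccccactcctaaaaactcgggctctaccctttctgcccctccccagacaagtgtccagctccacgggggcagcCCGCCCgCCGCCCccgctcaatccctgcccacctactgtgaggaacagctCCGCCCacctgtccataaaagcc
Col8a2: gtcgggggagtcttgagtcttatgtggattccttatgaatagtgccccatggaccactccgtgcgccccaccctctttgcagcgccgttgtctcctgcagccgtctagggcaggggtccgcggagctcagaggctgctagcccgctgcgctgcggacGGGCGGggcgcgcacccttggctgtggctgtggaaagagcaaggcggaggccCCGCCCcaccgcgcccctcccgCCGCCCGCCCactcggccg
Itga4: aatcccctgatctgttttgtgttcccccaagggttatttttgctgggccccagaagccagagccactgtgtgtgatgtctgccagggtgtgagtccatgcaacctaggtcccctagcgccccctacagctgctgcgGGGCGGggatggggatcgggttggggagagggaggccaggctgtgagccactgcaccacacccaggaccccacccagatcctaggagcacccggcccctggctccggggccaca

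The Col8a1 and Col8a2 runs held 4 GC boxes each, overlapping matches counted separately, and the Itga4 run held 1. A CCAAT box, a TATA box with the letters TATAAA and an AP-1 site with the letters TGANTCA were in none of these runs on either strand. Each motif was searched by those exact letters, where N is any base. Windows of 300 bases reaching past the start were given for 57 of the 78 genes, 63 windows in all. In every window, of these genes and of all genes, only the 250 bases before the start were searched. A GC box was in 64% of the 25 windows of genes higher in the amygdala, in 66.7% of the 9 windows of genes lower there and in 49.2% of all windows of the collagen, laminin and integrin genes, against 32.7% of all 32851 such windows. The CCAAT box was in 28.6% of the windows of these genes, against 33.8% of all windows. The TATA box was in 7.94% of their windows, against 12.4% of all, and the AP-1 site in 3.17%, against 6.75% of all. The genes called higher or lower had passed the filter on dim probe sets, while the windows of all genes were not chosen by brightness. No share was counted over the windows of tested genes. These matches describe letters in the windows and no factor's binding.

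Of the 78 genes, 48 passed the filter on dim probe sets, namely 28 collagens, 5 laminins and 15 integrins. Nearest inside the filter were Col1a1 with a mean of 24.7, Col7a1 with 26.8 and Col4a6 with 26.9 intensity units, and nearest outside were Col14a1 with 23.8, Lamc3 with 25.6 and Col13a1 with 22.5, since the filter ran on mean log2 values. The 30 genes that did not pass had means between 3.8 (Col10a1) and 25.6 (Lamc3) intensity units. The collagens among them were Col2a1, Col4a3, Col4a4, Col6a4, Col6a5, Col9a2, Col10a1, Col13a1, Col14a1, Col15a1, Col17a1, Col22a1, Col24a1 and Col26a1. The laminins were Lama1, Lama3, Lama4, Lamb3 and Lamc3. The integrins were Itga1, Itga2, Itga5, Itga10, Itgae, Itgal, Itgax, Itgb2l, Itgb3, Itgb6 and Itgb7, so all 3 collagen receptor alpha chains on the array were too dim to test.

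The comparison of amygdala with hippocampus asked which of these genes are at different levels in the 2 regions. Of the 48 genes tested, 25 were higher and 11 lower in the amygdala, 36 in all or 75%. The genes with the highest differences were Col9a3, Col8a1, Itgb4 and Col8a2, each more than 3-fold higher, and those with the lowest were Itga8, Itga4 and Col19a1, each more than 2-fold lower. The share called higher was 52.1% and the share called lower was 22.9%. The regions differed widely in general: 51.2% of all 27022 probe sets passed the same test, 27.1% higher and 24.1% lower. Among the brightest probe sets of each gene, 12468 in all, 56.3% passed, 31.7% higher and 24.6% lower. The collagen, laminin and integrin genes thus exceeded these backgrounds in the share called higher and not in the share called lower, which was not tested as a difference. The median log2 difference of the 48 genes was 0.26, against 0.016 over all probe sets and 0.036 over the brightest probe set of each gene. Differences are log2(intensity + 16) values, amygdala minus hippocampus, from limma with Benjamini-Hochberg adjustment over all probe sets tested, and they understate the change of dim probe sets.

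**Figure D1:**
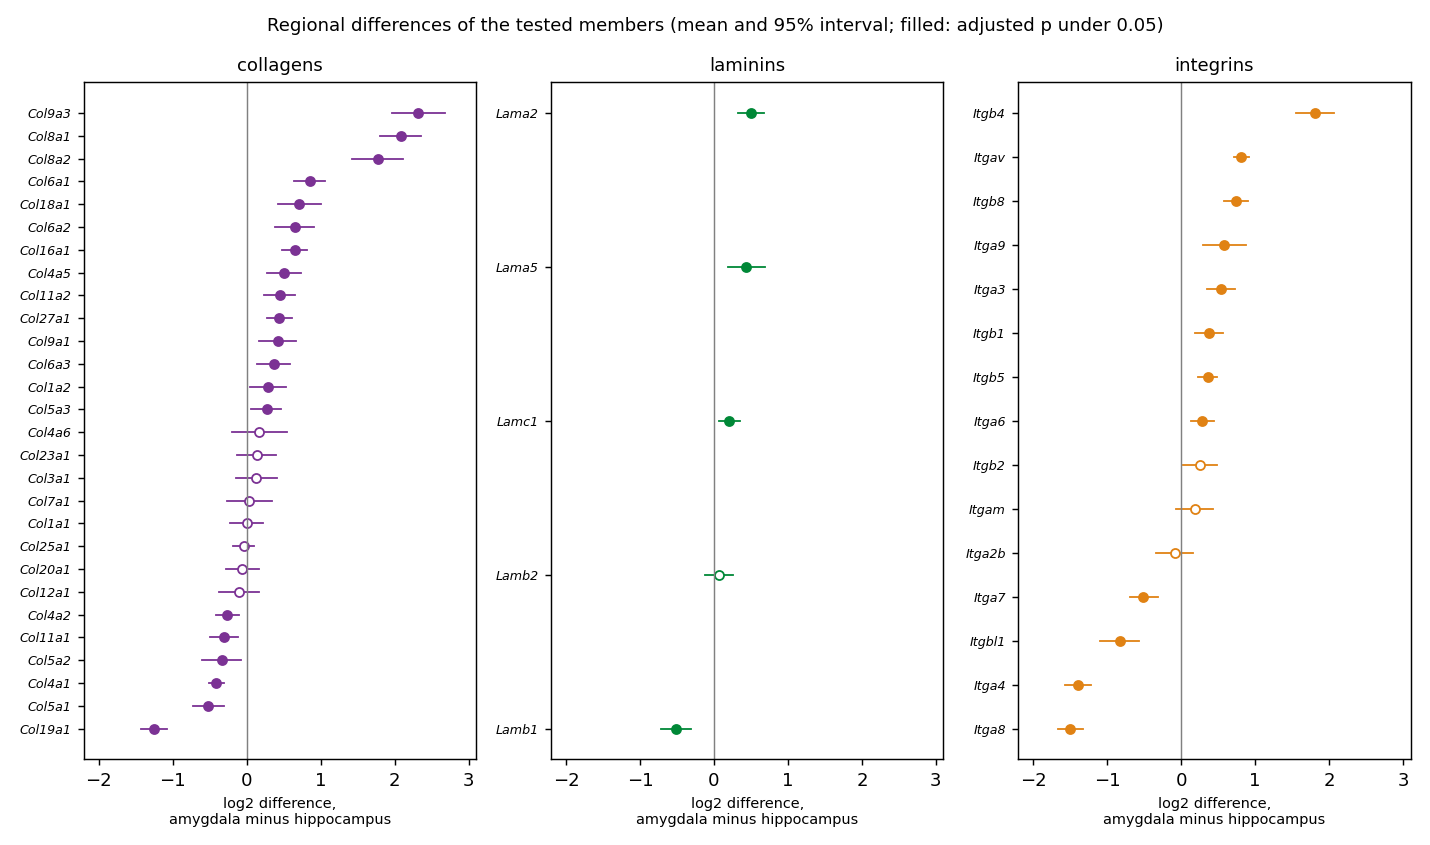
Log2 difference, amygdala minus hippocampus, of the 48 tested genes by family, with 95% intervals from limma; filled points passed the adjusted threshold of 0.05. Col9a3, Col8a1 and Col8a2 lie farthest right among collagens and Itgb4 among integrins, while Itga8, Itga4 and Col19a1 lie farthest left.

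The values of 9 genes, 18.8% of the 48 tested, did not overlap between the 12 amygdala and the 12 hippocampal arrays, as was so for 13.2% of all probe sets. Higher in the amygdala were Col9a3, Col8a1, Itgb4, Col8a2 and Itgav, and lower were Itga8, Itga4, Col19a1 and Col4a1. In the following, 3 values given for a region are its lowest, median and highest array in intensity units.

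Type VIII collagen is a short chain collagen that forms lattices in the basement membranes of the cornea and vessel walls, and both of its chains were higher in the amygdala. Col8a1 (chromosome 16) had 72.8, 147 and 224 in the amygdala, against 10.6, 22.2 and 41.6 in the hippocampus. Its log2 difference was 2.08 ± 0.14 (SE), a 4.23-fold higher level with an adjusted p of 1.55e-13. Every amygdala array lay above every hippocampal array. Col8a2 (chromosome 4) had 60.9, 120 and 204 in the amygdala and 10.5, 26.2 and 47.2 in the hippocampus, a 3.4-fold difference (adjusted p = 3.71e-10), again without overlap. A further probe set of Col8a1 also rose, with a log2 difference of 1.60 (adjusted p = 2.00e-09).

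The collagens that sit on fibrils without forming them, known as FACIT collagens, were split: of 6 tested, 3 were higher in the amygdala (Col9a3, Col16a1 and Col9a1) and 1 was lower (Col19a1). Col9a3 encodes a chain of type IX collagen, which coats the type II fibrils of cartilage. It had 146, 232 and 341 in the amygdala and 4.15, 34.1 and 63 in the hippocampus. Every hippocampal array lay below every amygdala array for this gene of chromosome 2, the lowest being high freezing array 8. The log2 difference was 2.32 ± 0.18 (SE), or 5.01-fold (adjusted p = 2.55e-12), and the other tested probe set of the gene gave 2.17 (adjusted p = 3.12e-14). Col9a1, a partner chain in type IX collagen, had 19.9, 43.5 and 55.5 in the amygdala and 8.95, 30.4 and 36.3 in the hippocampus, which overlapped, and was 1.34-fold higher (adjusted p = 0.00455). Col9a2, the remaining chain, was too dim for the filter. Without that filter it was among 6 dim genes called higher, with a log2 difference of 0.77 (adjusted p = 0.000114) and amygdala values of 7.24, 17.6 and 39.4 against hippocampal values of 0.505, 2.02 and 20.7. The others were Col24a1 (0.82), Col14a1 (0.45), Col17a1 (0.37), Lamb3 (0.36) and Itga1 (0.33), and none of the 30 dim genes was called lower. In that fit 32.3% of all 45037 probe sets passed, 7907 higher and 6627 lower, and the share among dim probe sets alone was not counted. These calls rest on values near the background, such as a hippocampal mean of 4.82 for Col24a1.

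Col19a1 went the other way. This FACIT collagen is made by groups of neurons in the mouse brain, where it has been tied to the formation of synapses. Its values were 78.2, 111 and 147 in the amygdala against 216, 295 and 316 in the hippocampus. The regions were apart, and the log2 difference was -1.25 ± 0.084 (SE), a 2.38-fold lower level (adjusted p = 1.89e-13). A further probe set fell by 1.03 on the log2 scale (adjusted p = 1.01e-11). Col16a1, a FACIT collagen of many connective tissues, had 105, 129 and 185 in the amygdala and 53.5, 82.8 and 119 in the hippocampus, a 1.57-fold higher level (adjusted p = 1.48e-07) with overlapping ends. Col12a1 and Col20a1 did not pass, with log2 differences of -0.10 and -0.06.

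Basement membranes rest on networks of type IV collagen. The Col4a1 and Col4a2 chains, which pair in nearly all basement membranes, were both lower in the amygdala, while Col4a5, a chain of more specialised membranes, was higher and Col4a6 did not pass (log2 difference 0.17). Col4a1 had 213, 244 and 277 in the amygdala and 285, 333 and 361 in the hippocampus. The difference was small but the regions were apart, with a log2 difference of -0.41 ± 0.049 (SE) and an adjusted p of 3.00e-08. Its other tested probe set gave -0.27 and did not pass (adjusted p = 0.0788). Col4a2 had 115, 157 and 194 in the amygdala against 142, 202 and 225 in the hippocampus, which overlapped (1.2-fold lower, adjusted p = 0.00365). Col4a5 had 50.8, 85.3 and 125 in the amygdala against 28.2, 55.4 and 86.1 in the hippocampus (1.43-fold higher, adjusted p = 0.000316). Col18a1, a multiplexin of basement membranes whose end is released as endostatin, was 1.64-fold higher (adjusted p = 0.000104).

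All 3 tested chains of type VI collagen, which forms beaded filaments around cells, were higher in the amygdala. Col6a1 had 139, 229 and 302 in the amygdala and 88.4, 119 and 154 in the hippocampus, with 1 amygdala array, high freezing array 12, inside the hippocampal range. It was 1.8-fold higher (adjusted p = 3.86e-08). Col6a2 was 1.56-fold higher (adjusted p = 0.000111) and Col6a3 1.29-fold higher (adjusted p = 0.0068), both with overlapping regions. Another probe set of Col6a2 gave 0.24 on the log2 scale and did not pass (adjusted p = 0.295).

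The fibrillar collagens, which form the cable-like fibrils of connective tissue, showed no common direction. Of 9 tested, 4 were higher (Col11a2, Col27a1, Col1a2 and Col5a3) and 3 lower (Col5a1, Col5a2 and Col11a1), with a median log2 difference of 0.13. Col5a1 and Col5a2, chains of the type V collagen that limits fibril width, had differences of -0.52 and -0.34, while Col5a3, the third chain of that type, had 0.27. Col11a1 had 48.1, 76.1 and 94.9 in the amygdala and 52.6, 95.5 and 147 in the hippocampus (1.24-fold lower, adjusted p = 0.0048), and its partner Col11a2 was 1.37-fold higher (adjusted p = 0.000392). Col1a1 and Col3a1, the main collagens of meningeal and vessel wall fibroblasts, did not pass, with log2 differences of -0.00 and 0.13, whereas Col1a2 was 1.22-fold higher (adjusted p = 0.0431). Col1a2 and Col5a3 lay near the threshold: neither passed with quantile normalization (adjusted p = 0.0891 and 0.102) or with centred arrays (0.122 and 0.117), and leaving out any of 13 arrays ended the call of Col1a2 and any of 5 that of Col5a3. Col5a2 lost its call when any of 3 amygdala arrays was left out (adjusted p = 0.0506 to 0.0594). The transmembrane collagens Col25a1, a neuronal collagen that collects in amyloid plaques, and Col23a1 did not pass either, with -0.04 and 0.14, nor did the anchoring fibril collagen Col7a1 with 0.03.

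Among the laminins, the alpha chains Lama2 and Lama5 and the gamma chain Lamc1 were higher in the amygdala and the beta chain Lamb1 was lower. Lama2, which anchors cells of muscle and brain vessels and is mutated in a muscular dystrophy, had 118, 145 and 161 in the amygdala and 50.7, 101 and 120 in the hippocampus. The regions overlapped by a narrow margin at the highest hippocampal array, and the level was 1.42-fold higher (adjusted p = 1.19e-05). Lama5, the alpha chain of mature vessel walls, was 1.36-fold higher (adjusted p = 0.00373), but its other tested probe set gave 0.10 on the log2 scale and did not pass (adjusted p = 0.646). Lamb1, the beta chain found in many laminin trimers, had 130, 203 and 295 in the amygdala against 230, 285 and 394 in the hippocampus (1.42-fold lower, adjusted p = 6.57e-05). Its further probe sets had the same sign but did not pass, with -0.17 and -0.12. Lamc1, the gamma chain that most trimers share, was 1.16-fold higher (adjusted p = 0.0126). It did not pass with quantile normalization (adjusted p = 0.0603), with centred arrays (0.131) or when all its probe sets were averaged (0.583). Lamb2 had a log2 difference of 0.07 and did not pass.

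Among the integrins, 8 were higher in the amygdala and 4 lower. The lower ones include Itgbl1, counted by the form of its symbol though it is no receptor subunit. All 4 laminin receptor chains passed. Itgb4, which pairs with Itga6 in the hemidesmosomes that fix epithelia to laminin, had 82.7, 127 and 223 in the amygdala and 11.2, 25.6 and 44.7 in the hippocampus (chromosome 11). The regions were apart and the level was 3.5-fold higher (adjusted p = 5.17e-13). Its partner Itga6 had 159, 210 and 237 in the amygdala against 119, 173 and 201 in the hippocampus, a 1.22-fold difference (adjusted p = 0.0028). Itga3 was 1.45-fold higher (adjusted p = 1.17e-05) and Itga7, best known from muscle, 1.42-fold lower (adjusted p = 2.42e-05).

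Itgav is the alpha chain of the receptors that bind the RGD sequence of vitronectin and of the latent form of the growth factor TGF-beta. It had 766, 851 and 966 in the amygdala and 431, 467 and 617 in the hippocampus, without overlap, a 1.76-fold higher level (adjusted p = 1.55e-14). Its other, dimmer tested probe set showed 0.02 on the log2 scale and did not pass (adjusted p = 0.912), and with all its probe sets averaged the gene did not pass (adjusted p = 0.106). Of the beta chains known to pair with Itgav, Itgb8, Itgb5 and Itgb1 were also higher, while Itgb3 and Itgb6 were too dim to test. Itgb8, the partner through which brain cells activate TGF-beta, had 600, 809 and 1061 in the amygdala and 295, 472 and 654 in the hippocampus (1.67-fold, adjusted p = 2.83e-09). Itgb5 was 1.28-fold higher (adjusted p = 1.83e-05) and Itgb1, the partner of most alpha chains, 1.29-fold higher (adjusted p = 0.00141). All 3 further probe sets of Itgb5 and the further one of Itgb1 were called higher as well.

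The 2 lowest differences belonged to alpha chains that pair with Itgb1. Itga8, the receptor of nephronectin, had 39.1, 60.1 and 91.3 in the amygdala and 154, 201 and 224 in the hippocampus (chromosome 2). The regions were apart, and the log2 difference was -1.50 ± 0.081 (SE), a 2.83-fold lower level (adjusted p = 1.43e-15). A further probe set gave -1.55 (adjusted p = 3.14e-11). Its ligand gene Npnt, a matrix glycoprotein outside the 3 families, was 3.19-fold lower (adjusted p = 2.16e-15), with means of 40.4 in the amygdala and 162 in the hippocampus. Itga4, the chain that binds fibronectin and the vessel wall receptor VCAM, had 42, 56.1 and 83.6 in the amygdala and 138, 184 and 257 in the hippocampus (chromosome 2). It was 2.63-fold lower (adjusted p = 3.63e-14) without overlap, and a further probe set fell by 0.76 on the log2 scale (adjusted p = 6.04e-06). Fn1, the fibronectin gene, fell by 0.65 on the log2 scale (adjusted p = 3.55e-07). Whether receptor and ligand genes move together was not tested.

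Itgbl1, which resembles the repeats of integrin beta chains but is no receptor subunit, had 12.4, 26.7 and 43.1 in the amygdala against 38.5, 53.6 and 90.8 in the hippocampus (1.78-fold lower, adjusted p = 2.92e-06). Itga9, a receptor for tenascins, was 1.5-fold higher (adjusted p = 0.000764). The tenascin genes were not: Tnc (-0.03) and Tnr (-0.23) did not pass, and Tnxb was lower (-0.35, adjusted p = 0.0222). Itgam and Itgb2, which together form the complement receptor of microglia and macrophages, did not pass, with log2 differences of 0.18 and 0.26 (adjusted p = 0.219 and 0.0512). The platelet chain Itga2b did not pass (-0.09).

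**Figure D2:**
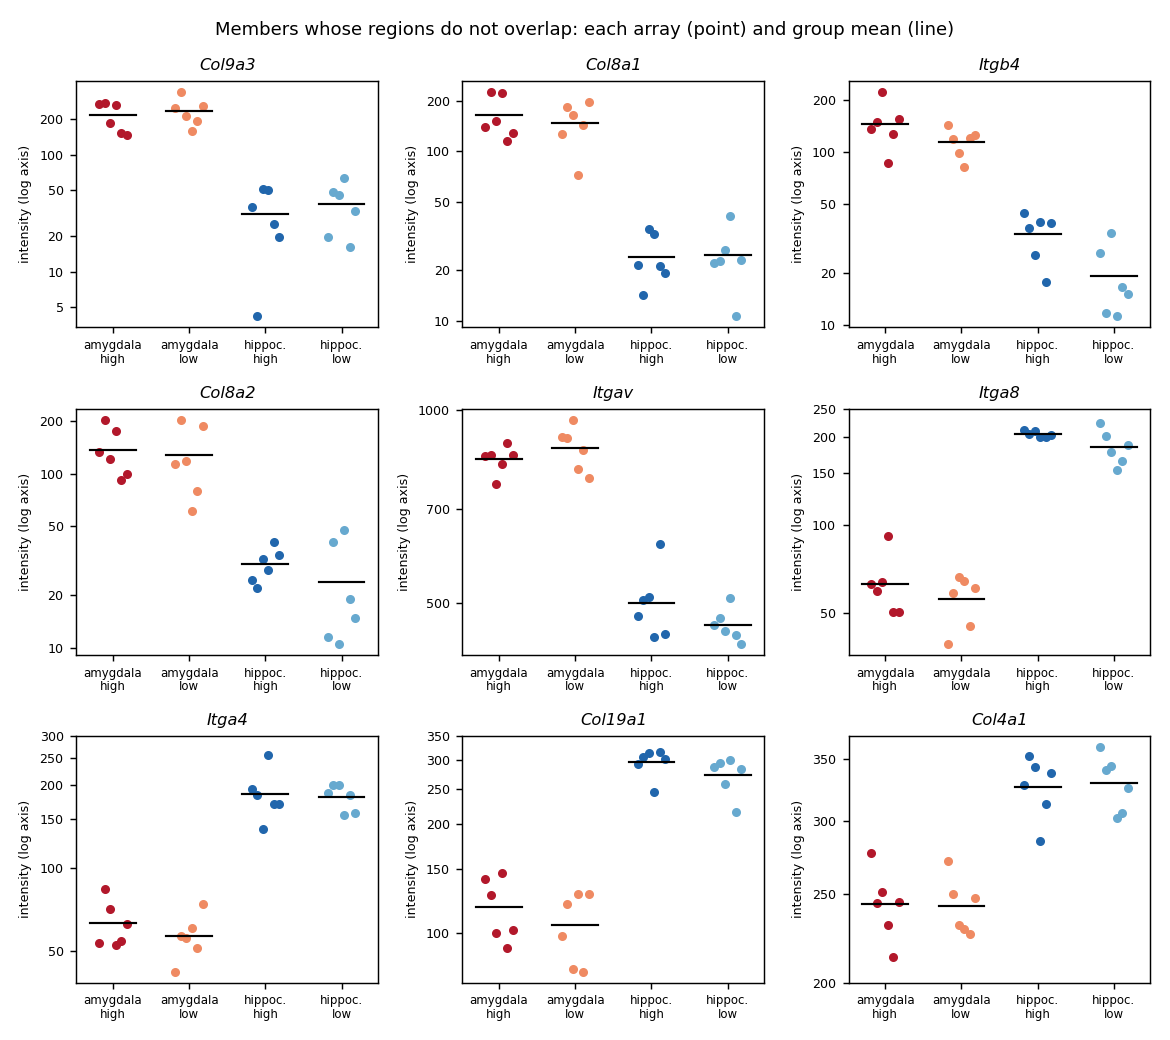
Intensity of each array (points, log axis) and group mean (lines) for the 9 genes whose amygdala and hippocampal arrays do not overlap, by region and freezing label. Col9a3, Col8a1, Itgb4, Col8a2 and Itgav lie higher in the amygdala, and Itga8, Itga4, Col19a1 and Col4a1 lower.

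Other probe sets of the same genes gave a check that the choice of the brightest did not enter. Of the 36 genes called by region, 20 had further tested probe sets, 23 in all. All 23 had the same sign as the brightest, 17 were called in the same direction and 0 in the opposite direction. Genes of these families that are neighbours on a chromosome, by the RefSeq gene order of GRCm38.p6, formed 9 pairs, of which 5 had both genes tested and 3 of those had the same sign. Col6a2 and Col6a1 (0.65 and 0.85), Col4a1 and Col4a2 (-0.41 and -0.26) and Col4a6 and Col4a5 (0.17 and 0.51) had the same sign. Col9a1 and Col19a1 on chromosome 1 had opposite signs (0.42 and -1.25), as had Col3a1 and Col5a2 (0.13 and -0.34).

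Choroid plexus marker sums moved with the region, and so they are set beside the genes with the highest differences. The amygdala array with the lowest choroid plexus sum, high freezing array 12 with 14931, had 146 for Col9a3 and 129 for Col8a1. The hippocampal array with the highest sum, high freezing array 9 with 13641, had 50.7 for Col9a3 and 35 for Col8a1. The sum is mostly Ttr, so arrays with similar sums need not be alike in the other choroid plexus markers. A fit without the 4 hippocampal arrays with sums over 10000 was chosen after the values were seen. It gave log2 differences of 2.55 for Col9a3, 2.18 for Col8a1, 1.92 for Col8a2 and 1.74 for Itgb4. With all arrays they were 2.32, 2.08, 1.77 and 1.81. That fit takes away the hippocampal arrays nearest the amygdala arrays in these sums, so it cannot show the part of the choroid plexus. In that fit 34 genes passed, 24 higher and 10 lower, while 47.5% of all probe sets passed, 6876 higher and 5950 lower. The part of the higher choroid plexus and oligodendrocyte marker levels of the amygdala arrays in these differences was not tested. Region and these marker levels go together in these arrays, so their parts cannot be told apart.

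**Figure D3:**
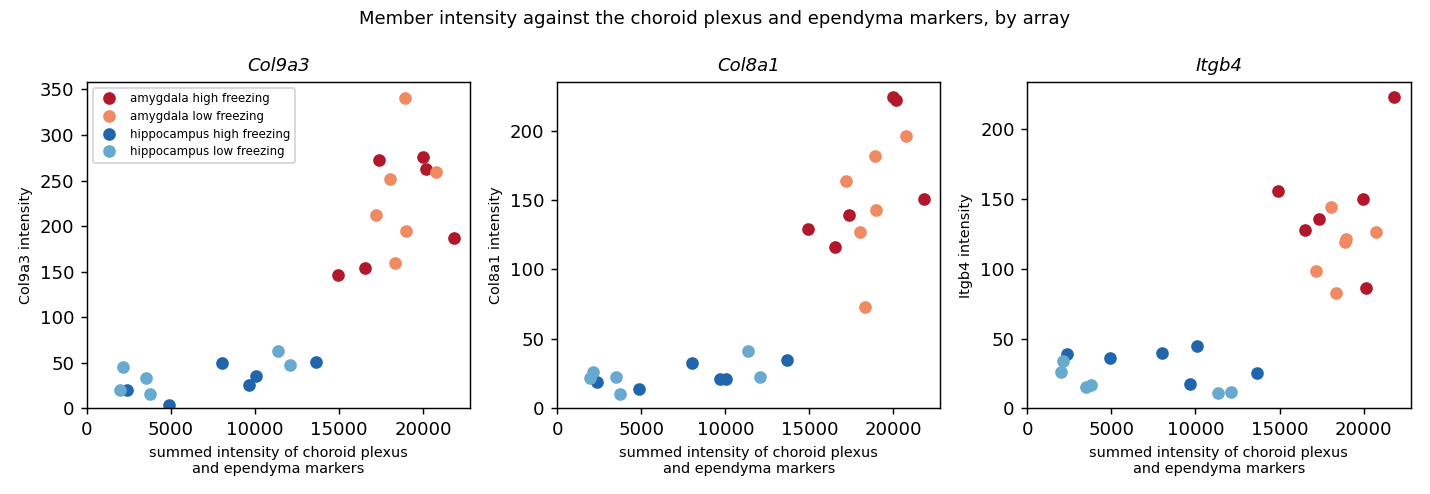
Intensity of Col9a3, Col8a1 and Itgb4 (vertical axes) against the summed intensity of the choroid plexus and ependyma markers (horizontal axis), 1 point per array. The hippocampal arrays lie at or below 63 for Col9a3, 41.6 for Col8a1 and 44.7 for Itgb4, with sums of up to 13641. The sum is mostly Ttr, whose log2 difference between regions (1.49) is below the median of the 10 markers (2.68).

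Other genes of the matrix were counted from lists by function. Over the brightest probe set of each gene, 31.7% were higher and 24.6% lower in the amygdala. No list was tested against these shares. Of 32 tested matrix glycoproteins, 14 were higher in the amygdala and 6 lower (median log2 difference 0.13). The highest was Tgfbi, an adhesive protein induced by TGF-beta (3.78-fold higher, adjusted p = 1.81e-12), and Npnt and Matn2, a matrilin, were lowest (Matn2 2.73-fold lower, adjusted p = 5.57e-14). The basement membrane linkers Nid1 and Nid2 were higher, by 0.72 and 0.50 on the log2 scale, while Hspg2 (0.08) and Agrn (-0.13) did not pass. Of 21 proteoglycans and link proteins, 8 were higher and 6 lower (median -0.04). Hapln2, a link protein of the nodes of myelinated axons, was 4.59-fold higher (adjusted p = 3.45e-17), and Dcn, the small proteoglycan decorin that binds collagen fibrils, was 2.72-fold lower (adjusted p = 2.84e-13), as was Gpc4, a glypican (2.62-fold lower, adjusted p = 3.48e-13).

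Of 23 genes for collagen synthesis, crosslinking and processing, 8 were higher and 6 lower (median 0.09). These counts lie near the shares over all genes, 31.7% higher and 24.6% lower. The highest were Pcolce2 and Pcolce, enhancers of procollagen cleavage (2.92-fold and 2.27-fold), and P3h4, a cofactor of collagen modification (1.88-fold). Of 15 matrix proteases and inhibitors, 9 were higher and 4 lower (median 0.22), led by Adamts4, a protease that cleaves brain proteoglycans (4.4-fold higher, adjusted p = 2.69e-16), with Mmp17 2-fold lower (adjusted p = 2.67e-10) and Mmp2, a gelatinase, 1.79-fold higher (adjusted p = 1.29e-06). Of 30 integrin adaptors and focal adhesion genes, 17 were higher and 5 lower (median 0.18). Ptk2b, the kinase also called Pyk2, was 2.95-fold lower (adjusted p = 9.64e-17) and Parvg, a parvin, 2-fold lower (adjusted p = 4.48e-08), while Lims2, a partner of integrin-linked kinase, was 1.79-fold higher (adjusted p = 2.19e-10). Of 13 other matrix receptors, 8 were higher and 1 lower (median 0.25), among them the collagen receptor kinase Ddr1 (2.27-fold higher, adjusted p = 1.39e-11), the dystrophin relative Utrn (2.19-fold) and the hyaluronan receptor Cd44 (1.53-fold).

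Markers of the cells that make or carry these proteins were counted beside them, where 31.7% of all genes were higher and 24.6% lower by their brightest probe set. Endothelial markers were higher in the amygdala arrays for 7 of 14 and lower for 0 (median 0.20), and markers of pericytes and smooth muscle for 6 of 9 and 0 (median 0.23). Fibroblast and meningeal markers were split, 3 higher and 3 lower of 12 (median -0.06), Dcn being in this list too. Microglial markers were higher for 8 of 11 and lower for 0 (median 0.30), astrocyte markers higher for 6 and lower for 2 of 10 (median 0.21), and neuronal markers higher for 4 and lower for 5 of 10 (median -0.12). The basement membrane collagens Col4a1 and Col4a2 had log2 differences of -0.41 and -0.26, and the other tested probe set of Col4a1 (-0.27) did not pass. The part of these cell types in the differences was not tested.

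The comparison of high with low freezing asked whether the same genes differ between the selected animals. None of the 48 genes passed limma's test after adjustment, in either region. In the amygdala 0 of 48 passed and 6 (12.5%) had an unadjusted p under 0.05, against 0.0555% of all probe sets passing and 10.7% with an unadjusted p under 0.05. In the hippocampus 0 passed and 5 (10.4%) had an unadjusted p under 0.05, against 0.0518% and 11.8% of all probe sets. The difference between the regional freezing differences passed for 0 of the 48 genes and 0% of all probe sets. For that difference 2 of the 48 genes (4.17%) had an unadjusted p under 0.05, against 6.06% of all probe sets. The shares at an unadjusted p under 0.05 lie near those of the whole array, and a p that misses the threshold does not show equal levels.

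Col11a1 had the smallest p of the 48 genes in the hippocampus and for the difference between regions. In the amygdala it had 74.8, 88.2 and 94.9 in high freezing arrays and 48.1, 68.6 and 77.5 in low freezing arrays. In the hippocampus it had 52.6, 81.4 and 112 in high freezing arrays and 89.9, 124 and 147 in low freezing arrays. High freezing arrays thus lay mostly higher in the amygdala and mostly lower in the hippocampus, with overlap in both regions. The log2 difference, high minus low freezing, was 0.33 in the amygdala (95% interval 0.07 to 0.58, limma adjusted p = 0.328) and -0.46 in the hippocampus (-0.72 to -0.20, adjusted p = 0.137). The difference between them, amygdala minus hippocampus, was 0.79 (0.42 to 1.15), with an unadjusted p of 0.000128 and an adjusted p of 0.706. A further probe set of Col11a1 gave 0.47 in the amygdala, -0.47 in the hippocampus and 0.95 for the difference, none of which passed. Without the 4 hippocampal arrays with the highest choroid plexus sums, the hippocampal difference was -0.30 (adjusted p = 0.335), a change of over 1.5 times, and the difference between regions was 0.62 (adjusted p = 0.474).

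Itgb8 followed Col11a1 in the order of hippocampal p-values and did not pass. In the hippocampus it had 483, 518 and 654 in high freezing arrays and 295, 434 and 462 in low freezing arrays, without overlap. How many of all probe sets separate the freezing labels in this way was not counted. The log2 difference was 0.38 (0.15 to 0.61), with an adjusted p of 0.157. In the amygdala the values were 600, 809 and 1061 for high freezing and 681, 817 and 896 for low freezing, and the difference was -0.02 (-0.24 to 0.21). Low freezing array 3 of the hippocampus was the lowest, and without it the hippocampal difference was 0.29 (adjusted p = 0.347).

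Itgb4 in the hippocampus had 17.6, 37.5 and 44.7 in high freezing arrays and 11.2, 15.8 and 34.2 in low freezing arrays. The groups overlapped and the log2 difference was 0.51 (0.14 to 0.88, adjusted p = 0.241), which became 0.33 (adjusted p = 0.539) without the 4 arrays with high choroid plexus sums. The further genes among the 5 smallest hippocampal p-values were Col16a1 (0.30, adjusted p = 0.295) and Col5a1 (0.29, adjusted p = 0.408).

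In the amygdala the smallest p belonged to Itgb1, with 184, 223 and 254 in high freezing arrays and 121, 163 and 216 in low freezing arrays. Low freezing array 5 was the only array of its group inside the high freezing range. The log2 difference was 0.40 (0.13 to 0.67, adjusted p = 0.230), but the gene's other tested probe set gave 0.06. Itgb5 had 167, 212 and 227 in high freezing arrays and 209, 243 and 273 in low freezing arrays, a difference of -0.25 (-0.43 to -0.07, adjusted p = 0.289). Its other probe sets gave -0.05, -0.20 and 0.05. Col25a1 (0.24, adjusted p = 0.338) and Col4a5 (0.36, adjusted p = 0.398) completed the 5 smallest together with Col11a1. For the difference between regions, Itgb8 (-0.40, adjusted p = 0.804), Itgb5 (-0.25, adjusted p = 0.826), Itgb1 (0.36, adjusted p = 0.837) and Itga9 (-0.50, adjusted p = 0.839) followed Col11a1.

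**Figure D4:**
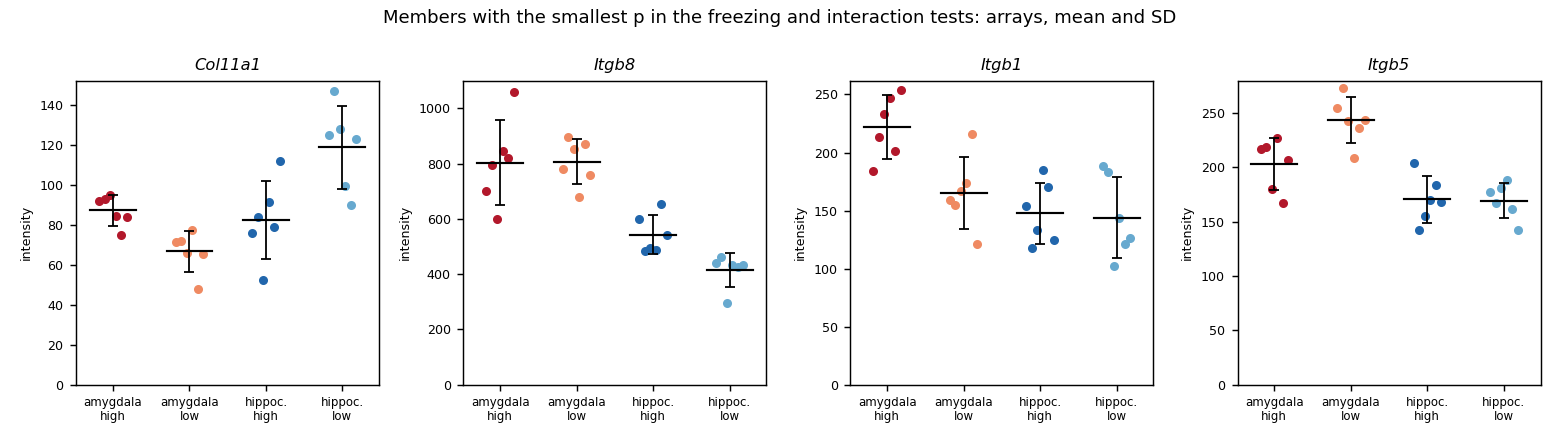
Intensity of each array (points), with mean and SD of each group of 6 (lines and bars), for Col11a1, Itgb8, Itgb1 and Itgb5, by region and freezing label. Itgb8 is the gene of these 4 whose high and low freezing arrays do not overlap in the hippocampus, a pattern not counted over all probe sets.

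The signs of the freezing differences are given as a description without a test, since the genes share arrays and are not independent. In the amygdala 25 of 28 collagens had a difference above 0 (89.3%, median 0.13), against 53% of all probe sets and 49.3% of the brightest probe sets of each gene. The collagens below or at 0 by this count were Col18a1, Col9a3 and Col7a1. Of the 14 collagens that did not pass the filter on dim probe sets, 5 lay above 0 and 9 below in a fit without it (median -0.09). With quantile normalization the count among the 28 was 22 and with arrays centred on their medians 21, and leaving out 1 array at a time gave 21 to 25. In the hippocampus 18 of 28 collagens lay above 0 (64.3%), against 51.5% of all probe sets. Over all 48 genes it was 38 in the amygdala and 33 in the hippocampus, the hippocampal count being 24 with centred arrays. In the amygdala all 5 laminins but only 8 of 15 integrins (53.3%) lay above 0, the latter near the 53% of all probe sets. The shares of all probe sets above 0 with quantile normalization or centred arrays are not given here. No gene of the 6 matrix lists passed the freezing comparison of either region or the difference between them. No gene of the marker lists named next passed either. In the amygdala all 8 markers of central amygdala and striatum lay below 0 (median -0.28), while 6 of 7 basolateral amygdala markers and 6 of 10 hippocampal field markers lay above 0 (medians 0.13 and 0.12). Choroid plexus markers had a median of -0.01 in the amygdala and 0.27 in the hippocampus. Of 10 astrocyte markers, 3 lay above 0 in the amygdala (median -0.11) and 5 in the hippocampus (median -0.04). Of these, Gfap alone is named here, outside the naming rule, with limma values of -0.90 in the amygdala (adjusted p = 0.0851) and -0.84 in the hippocampus (adjusted p = 0.121). It lay far below both medians of its list and does not stand for the other astrocyte markers. The part of these markers in the signs of the collagens was not tested.

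**Figure D5:**
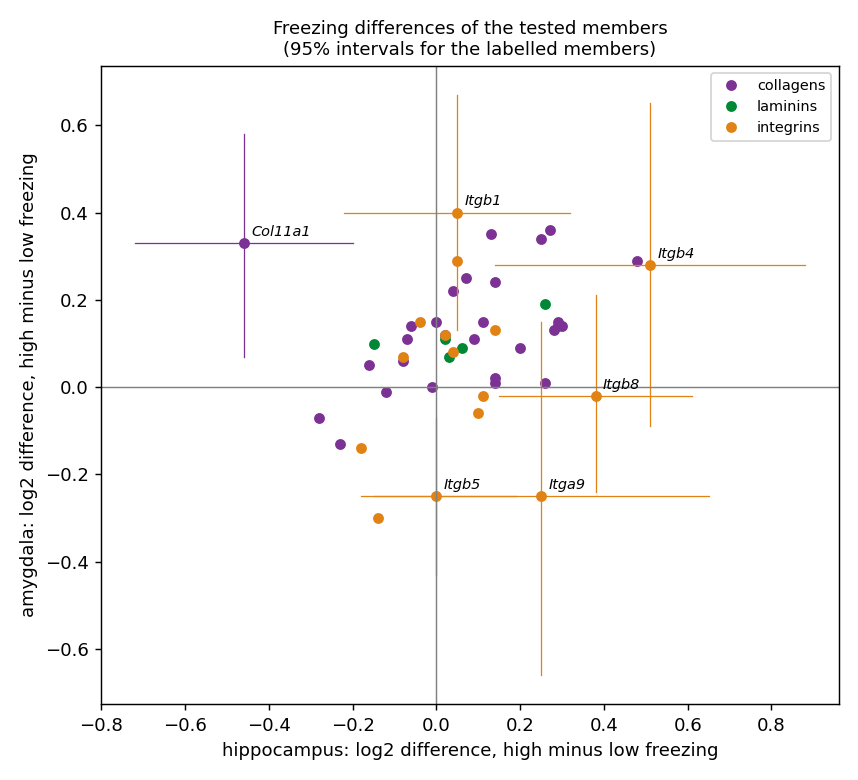
Log2 difference, high minus low freezing, of the 48 tested genes in the amygdala (vertical axis) and the hippocampus (horizontal axis), with 95% intervals for the 6 labelled genes. Col11a1 lies farthest to the upper left, and most collagens lie above 0 on the vertical axis.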

How the data were processed

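Expression was measured on 24 one-colour Affymetrix arrays, 6 for each pair of region and freezing label, grouped by the submitters' labels. Each array was deposited as intensity on a linear scale for 45101 probe sets; the software that made them and the genome build are not given in the sources used here. Gene symbols came from the platform annotation of the probe sets, and probe sets with several symbols were not named.

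Intensity was taken as log2(intensity + 16) without further normalization. The dimmest 40% of probe sets by mean log2 value over all arrays and the 64 control probe sets were left out, leaving 27022 (lowest mean kept 23.35). All arrays entered a single limma fit (version 3.58.1, under R 4.3.3) in which each group had its own mean and the variance prior followed intensity, with 20 residual degrees of freedom, two-sided tests and Benjamini-Hochberg adjustment over all probe sets kept (threshold 0.05). The script was tested on simulated data. Named genes were, per family, the 6 highest and 6 lowest regional differences that passed, the 5 smallest p-values of each other comparison and the leading genes of each list. Other genes of the 3 families are given to account for each of them, and those of the lists beyond the leading 3, such as Fn1, Nid1 and Hspg2, were chosen after their values were seen. The genes, lists and tests were chosen with earlier results of these data known. Alternatives changed 1 choice at a time: the offset, normalization, filter, variance prior, replicate block, probe set rule and each array left out. RefSeq tables of GRCm38.p6 gave promoters, chromosomes and gene order.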

Additional observations from a re-analysis of the deposited data

Results flagged for a closer look

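Among the 29 genes named by rule, 116 groups of 6 arrays were examined for an array far from the others, and 8 groups had such an array by Dixon's test (critical value 0.625), where chance gives about 1 group in 20. In all 8 it was the lowest array of its group. In the amygdala, low freezing array 5 had 48.1 for Col11a1 (others 65.6 to 77.5) and 154 for Lamb1 (others 192 to 211), and low freezing array 2 had 35.9 for Itga9 (others 61.7 to 78.2). In the hippocampus, low freezing array 3 had 28.2 for Col4a5 (others 46.8 to 56.9) and 295 for Itgb8 (others 425 to 462), and low freezing array 4 had 142 for Col4a2 (others 200 to 225). High freezing array 10 of the hippocampus had 246 for Col19a1 (others 294 to 316), and high freezing array 12 had 50.7 for Lama2 (others 101 to 120).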

How the results depend on the processing

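The regional counts kept to within 1.5 times of 36 genes (25 higher, 11 lower) except where the alternative tests fewer genes. Leaving out the dimmest 60% of probe sets kept 24 of the genes, of which 22 passed, 14 higher and 8 lower. There 60.3% of all probe sets kept passed. Averaging all probe sets of a gene allowed a test for 32, of which 25 passed, 16 higher and 9 lower, against 56.9% of all genes so tested. Quantile normalization and centred arrays each gave 33 (22 higher, 11 lower), no filter 40 of 78 (29 higher, 11 lower) and offsets of 1 or 64 gave 36. The shares of all probe sets passing were 51.8%, 52.5%, 32.3%, 50.9% and 51.3% in that order. Leaving out each array in turn gave 34 to 36 genes, 23 to 26 higher and 10 to 11 lower. Across all probe sets the split of higher to lower calls was 7310 to 6522, but 6676 to 7326 with quantile normalization and 5580 to 8605 with centred arrays, where the median difference was -0.059 against 0.016. No freezing or interaction call was made for these genes under any alternative, leave-one-out included, and no direction of a called gene reversed.

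Under 1 or more alternatives 5 called genes did not pass, Col1a2, Col5a2, Col5a3, Itgav and Lamc1, with the adjusted p-values given beside them, and the other 31 passed under every alternative that could test them. When 1 array was left out, this concerned Col1a2 for 13 arrays (0.0539 to 0.0892), Col5a3 for 5 (0.0535 to 0.0635) and Col5a2 for amygdala low freezing arrays 4 and 5 and amygdala high freezing array 11. Without the 4 hippocampal arrays with the highest choroid plexus sums, an alternative chosen after seeing the data, Col5a2 (0.0726) and Col5a3 (0.0652) did not pass. With the replicate number shared by the regions as a replicate block, 37 genes passed (26 higher, 11 lower), as did 51.7% of all probe sets. The numbers are not shown to pair the arrays: correlations of same-numbered deviations ran from -0.0791 to 0.0865, 0 of 12 over 0.1, and 5 of 12 arrays correlated best with their own number. Dim probe sets, near the background, limit what can be seen of 30 of the 78 genes.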
